A study of Homo sapiens with 6 samples.

Results

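The genes described here write, copy, remove and read cytosine methylation in DNA: DNMT1, DNMT3A, DNMT3B, UHRF1, UHRF2, TET1, TET2, TET3 and MBD2. They were taken by name, and every probe set that the array's platform annotation gives to 1 of these 9 genes and to no other was used, 19 probe sets among 54613 tested; in the form with 1 probe set per gene they were 9 of 19775 genes. RNA was compared between side population (SP) cells and cells outside that gate (non-SP), both sorted from IGROV1, an established human ovarian carcinoma line grown in RPMI 1640 with fetal bovine serum. All 6 samples were stained with the DNA dye Hoechst 33342 and sorted by flow cytometry with no other treatment, and the SP gate takes cells with low dye signal; what the dye itself does to RNA cannot be told apart from the sort. Each group had 3 samples, labelled as biological replicates. Whether these were separate cultures is not said, and a p-value here covers no more than their spread, part of which may be technical. Values are log2 expression from 1 array per sample, and with 6 arrays the precision is limited. In such bulk RNA, fewer cells that express a gene and less RNA per cell cannot be told apart.

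DNA methylation in mammals sits mainly on cytosines followed by guanine (CpG). DNMT3A and DNMT3B place new methyl groups, and DNMT1 restores the mark on the new strand behind the replication fork, guided there by UHRF1, which recognises DNA methylated on 1 strand only. UHRF2 is a close relative of UHRF1. The TET enzymes oxidise methylcytosine, a step towards its removal, and MBD2 binds methylated CpG and brings in the NuRD repressor complex. Many tumours combine local gain of methylation at CpG-rich promoters with loss elsewhere.

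None of the 9 genes passed the test between SP and non-SP cells (limma, Benjamini-Hochberg adjusted p from 0.692 to 0.996 over all genes), and 0 of their 19 probe sets passed over all probe sets (adjusted p from 0.612 to 0.995). The background was as sparse: 1 of 19775 genes passed (0.00506%), as did 1 of 54613 probe sets (0.00183%). At an unadjusted p under 0.05 there were 2 of the 9 genes, TET2 higher and DNMT3A lower in SP samples, against 6.78% of all genes (3.07% higher and 3.71% lower). Of the 19 probe sets 3 reached it, 2 of TET2 and 1 of DNMT3A, against 7.31% of all probe sets (3.79% higher and 3.52% lower). The 3 SP values lay apart from the 3 non-SP values for the same 2 genes, as they did for 11.9% of all genes (4.78% with SP higher, 7.1% with SP lower). They lay apart for the same 3 probe sets, and for 12.5% of all probe sets (5.59% higher, 6.87% lower). Counts of 2 among 9 and 3 among 19 are too small to set these genes apart from the rest of the array. Gene by gene, the differences farthest from 0 were those of TET1, at -1.01 and lower in 2 of the 3 SP samples, and of TET2, at 0.54 and above 0 with each of its 3 probe sets. DNMT1 and DNMT3B had the narrowest intervals around 0.

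On the arrays as a whole, epithelial and ovarian markers fitted the label: 8 of 10, among them EPCAM, KRT18 and PAX8, lay above the median level of all genes (6.27), and MUC16 and MSLN lay below it. Of 4 leukocyte markers 0 lay above that level; CD3E exceeded the highest negative control on 0 of 6 arrays, PTPRC on 1 of 6, and CD14 and LYZ on all 6. Among markers of endothelium 1 of 4 (CDH5) and among those of fibroblasts 1 of 6 (COL1A1) lay above it. The mean level of a list on each array overlapped between the groups for epithelial, leukocyte and fibroblast markers. Within the epithelial list members went opposite ways at an unadjusted p under 0.05 (limma): on average KRT7 stood at 11.4 in SP against 10.6 in non-SP samples and CDH1 at 10.5 against 9.75, while KRT8 stood at 7.40 against 8.11. For the 4 endothelial markers the mean level of the list was 5.09 to 5.20 in SP and 5.26 to 5.32 in non-SP samples. The part of these markers in the results was not tested. ABCB1, a pump that exports the dye, differed by 4.78 (SE 0.56, limma adjusted p = 0.12) in log2 units, SP minus non-SP. The other transporter known for the side population, ABCG2, differed by -0.18 (SE 0.42). The arrays also fell into 2 sets that cut across the groups. The first principal component of all genes, which held 45.8% of the variance, placed non-SP replicates 1 and 3 and SP replicate 1 on one side (set A) and non-SP replicate 2 and SP replicates 2 and 3 on the other (set B). The signal of ACTB at its 3' end minus that at its 5' end, which grows as RNA is shortened, was 2.02 to 2.29 in set A and 2.46 to 2.55 in set B. The same measure for GAPDH overlapped between the sets, at 0.0422 to 0.15 in set A and 0.0351 to 0.36 in set B. The sets are read from the data and are not groups of the study. With the set as a block ABCB1 differed by 4.28 (SE 0.14) and passed (limma, adjusted p = 0.00142). Differences within the sets, where set A has 1 SP and set B 1 non-SP array, are given for the brightest probe set of each of the 9 genes and for genes named with their values on the arrays. For any gene whose groups lay apart over all arrays, the sign within both sets was fixed in advance and adds nothing.

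The maintenance pair, DNMT1 and UHRF1, was expressed in both groups. DNMT1, with a single probe set (201697_s_at), had values of 8.03, 7.93 and 8.03 in SP replicates 1 to 3 and of 7.93, 7.81 and 8.13 in non-SP replicates 1 to 3. The SP values lay inside the range of the non-SP values. The difference was 0.04 (SE 0.13), and its 95% interval of -0.26 to 0.35 corresponds to an SP level between 0.835 and 1.27 times that of non-SP cells (limma, adjusted p = 0.978). Larger changes in DNMT1 RNA than these lie outside the interval. It was 0.0062 within set A and 0.17 within set B. UHRF1 (225655_at) read 8.17, 7.83 and 7.79 in SP samples and 7.98, 7.38 and 8.14 in non-SP samples. The groups overlapped, and 1 array, non-SP replicate 2, was the lowest of the 6. UHRF1 differed by 0.10 (SE 0.23), with an interval of -0.44 to 0.64; it differed by -0.12 without that array and by -0.02 without SP replicate 1.

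Both genes are known to be expressed mainly in dividing cells. The promoter of UHRF1 is shown because it is the promoter among the 9 genes that holds a match to the DNA site of E2F, the factor family that switches on genes for DNA replication. Searched were TTTCCCGC, TTTCGCGC, TTTGGCGC and TTTGCCGC, on both strands, in the 250 bases before each RefSeq start (GRCh38.p14). Of 34788 such promoters, 2.8% held a match, and among the 9 genes 2 of the 20 starts did, both of them of UHRF1. The stretch before the first of its 3 starts, chr19:4909251-4909500 on the plus strand, is printed with the match, TTTCCCGC read on the opposite strand, in capitals.
UHRF1: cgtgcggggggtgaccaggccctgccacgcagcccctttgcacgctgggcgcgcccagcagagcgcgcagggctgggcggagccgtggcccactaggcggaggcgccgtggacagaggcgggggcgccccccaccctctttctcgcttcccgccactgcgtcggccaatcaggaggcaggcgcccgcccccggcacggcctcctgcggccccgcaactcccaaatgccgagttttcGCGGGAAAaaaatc
The match begins 14 bases before the start. It is a match of letters and says nothing of binding in these cells.

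Of the S phase genes chosen to go beside this pair, 13 of 19 measured had a difference above 0, against 8948 of all 19775 genes. The list median was 0.10 against -0.02 for all genes, and 0 of the list passed (limma, adjusted p over all genes). At an unadjusted p under 0.05 there were 0, against 6.78% of all genes. MCM6, a subunit of the replicative helicase, differed by -0.28 (SE 0.12), and its SP values were all below its non-SP values. FEN1, which trims Okazaki fragments, differed by 0.24 (SE 0.12), with all SP values higher. E2F1 differed by 0.35 (SE 0.18) and PCNA, the sliding clamp to which DNMT1 binds, by 0.25 (SE 0.16), both with overlapping groups. The proliferation marker MKI67 differed by -0.13 (SE 0.67) between the groups but ran from 9.92 to 10.44 on the arrays of set A and from 8.17 to 8.83 on those of set B. UHRF1 was likewise higher in set A, with a mean of 8.10 against 7.67 in set B. Within the sets the SP minus non-SP difference of UHRF1 was 0.12 in set A and 0.43 in set B, and that of MKI67 was 0.36 and 0.58. With the set as a block UHRF1 differed by 0.28 (SE 0.13, limma adjusted p = 0.517) and DNMT1 by 0.09 (SE 0.12, adjusted p = 0.869). The median of the S phase list was 0.20 with this block, 0.14 within set A and 0.31 within set B. CDT1 had the largest difference of the list, 0.59 (SE 0.68), and 1.17 (SE 0.27, limma adjusted p = 0.224) with the block. MCM6 and MCM4 stayed below 0 with the block, at -0.22 and -0.13. The part of cell cycle or RNA quality in these values was not tested.

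UHRF2 (225610_at) had 6.68, 6.52 and 6.40 in SP samples and 6.47, 6.12 and 6.40 in non-SP samples. SP replicates 1 and 2 were the highest of the 6 arrays, and SP replicate 3 lay within the non-SP range. The difference was 0.20 (SE 0.15) with an interval of -0.14 to 0.55, or 0.905 to 1.46 times the non-SP level. It was 0.24 within set A and 0.34 within set B.

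**Figure D1:**
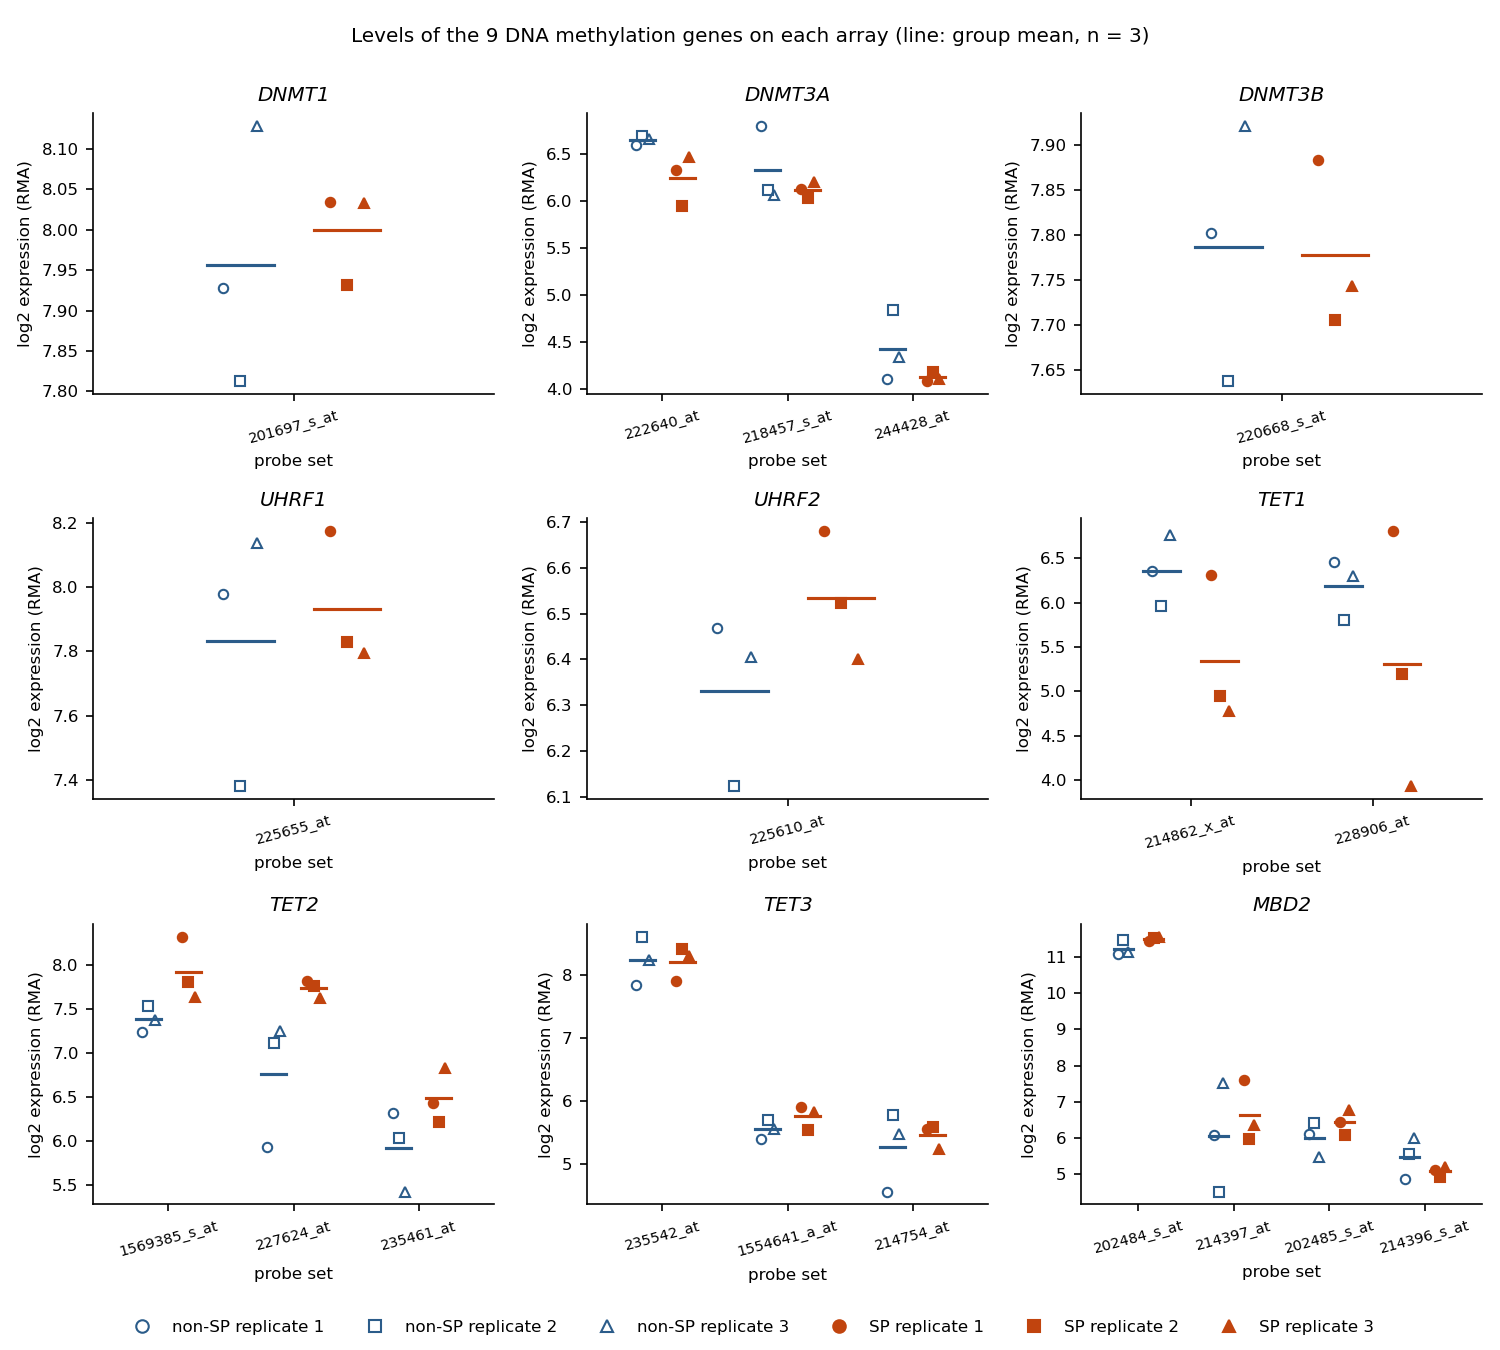
Log2 expression on each of the 6 arrays for the 19 probe sets of the 9 genes, 1 panel per gene with its own vertical scale; open blue symbols are non-SP and filled orange symbols SP samples, shapes give the replicate number and lines the group means (n = 3). SP values lie above all non-SP values for TET2 1569385_s_at and 227624_at and below them for DNMT3A 222640_at; for TET1, SP replicates 2 and 3 lie below the other 4 arrays.

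Of the enzymes that place new methyl groups, DNMT3A was lower in SP samples by all 3 of its probe sets, while DNMT3B was nearly level. The brightest DNMT3A probe set (222640_at) read 6.33, 5.94 and 6.47 in SP samples and 6.60, 6.69 and 6.66 in non-SP samples. All 3 SP values lay below all 3 non-SP values, with 0.13 between the nearest pair. The difference was -0.40 (SE 0.16; interval -0.78 to -0.02), an SP level of 0.582 to 0.989 times that of non-SP cells, and it did not pass (limma, unadjusted p = 0.0433, adjusted p = 0.718). Without SP replicate 2, the lowest array, it was -0.25. The other 2 probe sets differed by -0.21 (218457_s_at, SE 0.22) and by -0.30 (244428_at, SE 0.20), with overlapping groups. In 218457_s_at the gap came from non-SP replicate 1, at 6.80 where the other 5 arrays lay between 6.04 and 6.20; without that sample the difference was 0.03. In 244428_at it rested on non-SP replicate 2, at 4.84, and was -0.10 without it. Averaged over its 3 probe sets DNMT3A differed by -0.30 (SE 0.11, limma adjusted p = 0.6). Within the array sets the brightest probe set differed by -0.30 in set A and by -0.48 in set B. As its groups lay apart, both had to be below 0.

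DNMT3A has 6 starts in RefSeq, spread over a distal and an internal promoter region known to give a long and a short protein. The array's annotation does not say which of these each probe set sees. The 250 bases before its first start, chr2:25342591-25342840 on the minus strand (GRCh38.p14), hold 12 CpG, close to the median of 11 over all promoters, while the third start has 33 before it. The first of them is shown with each CpG, the letters on which the enzymes act, in capitals.
DNMT3A: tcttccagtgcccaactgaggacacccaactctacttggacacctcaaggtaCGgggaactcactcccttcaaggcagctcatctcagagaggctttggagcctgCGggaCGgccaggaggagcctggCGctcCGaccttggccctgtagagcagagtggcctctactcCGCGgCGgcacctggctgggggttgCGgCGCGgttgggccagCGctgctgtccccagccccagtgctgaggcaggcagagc
DNMT3B, with 1 probe set (220668_s_at), read 7.88, 7.71 and 7.74 in SP samples and 7.80, 7.64 and 7.92 in non-SP samples. The SP range lay inside the non-SP range. The difference was -0.01 (SE 0.13) with an interval of -0.31 to 0.29, or 0.805 to 1.23 times the non-SP level, and it was 0.02 within set A and 0.09 within set B. The 1 start used for DNMT3B had 3 CpG in the 250 bases before it, the fewest among the first starts of the 9 genes. Whether it is the main start of the gene was not tested.

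TET2 gave the clearest pattern among the erasers. Its brightest probe set (1569385_s_at) read 8.33, 7.82 and 7.64 in SP samples and 7.24, 7.54 and 7.38 in non-SP samples. SP samples were all above non-SP samples, with 0.09 between the nearest pair. The difference was 0.54 (SE 0.20; interval 0.06 to 1.02), 1.45-fold with a range of 1.04 to 2.03, and it did not pass over all genes (limma, unadjusted p = 0.0339, adjusted p = 0.692). SP replicate 1 was the highest array, and without it the difference was 0.34 (SE 0.15).

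The other 2 TET2 probe sets pointed the same way. With 227624_at SP samples read 7.82, 7.77 and 7.63 and non-SP samples 5.93, 7.11 and 7.25. Again the groups lay apart, here with tight SP values and with non-SP replicate 1 far below the rest; the difference was 0.97 (SE 0.35; interval 0.14 to 1.81) and its adjusted p over all probe sets was 0.612 (limma). Without non-SP replicate 1 it was 0.56. With 235461_at the values were 6.43, 6.22 and 6.84 against 6.32, 6.04 and 5.43, which overlap, and the difference was 0.57 (SE 0.27); it was 0.32 without non-SP replicate 3. The mean of the 3 probe sets differed by 0.69 (SE 0.14), or, as a limma fit over all genes treated this way, adjusted p = 0.318. Within array set A, where SP replicate 1 stands against 2 non-SP samples, the 3 probe sets differed by 1.02, 1.23 and 0.56. In set B they differed by 0.18, 0.58 and 0.49. The within-set differences were all above 0. For the brightest probe set and 227624_at, whose groups lay apart, this had to be so under any split of the arrays. With the set as a block the brightest probe set differed by 0.60 (SE 0.21, limma adjusted p = 0.39) and the others by 0.91 and 0.52.

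TET2 has 2 starts in RefSeq, with 10 and 34 CpG in the 250 bases before them. The stretch before the first start, chr4:105145625-105145874 on the plus strand (GRCh38.p14), is given because TET2 was the gene whose several probe sets all lay above 0; CpG are in capitals.
TET2: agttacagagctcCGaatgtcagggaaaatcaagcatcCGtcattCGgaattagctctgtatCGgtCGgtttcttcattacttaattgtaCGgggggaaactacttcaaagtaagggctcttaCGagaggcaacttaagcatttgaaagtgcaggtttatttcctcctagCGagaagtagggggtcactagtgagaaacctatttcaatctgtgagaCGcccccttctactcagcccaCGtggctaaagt
The second start is richer in CpG than 93.2% of all promoters and the first than 47.9%.

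TET1 had the widest spread among SP samples of the 9 genes, with an SD of 0.84 (n = 3) where the other 8, by their brightest probe sets, had SDs of 0.06 to 0.36. Its probe set 214862_x_at, of a type whose probes can also bind other transcripts, read 6.31, 4.95 and 4.78 in SP samples and 6.36, 5.96 and 6.76 in non-SP samples. SP replicate 1 lay within the non-SP range, and SP replicates 2 and 3 lay below every non-SP sample. The second probe set (228906_at) gave 6.81, 5.19 and 3.93 against 6.46, 5.80 and 6.30. Here SP replicate 1 was the highest of all arrays and SP replicate 3 the lowest, so both probe sets divide the SP samples in the same way; over the 6 arrays they had a correlation of 0.895 with each other.

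The TET1 differences were -1.01 (SE 0.43; interval -2.04 to 0.02) and -0.88 (SE 0.68; interval -2.51 to 0.76), and neither passed (limma, adjusted p = 0.733 and 0.86). SP replicate 1 moved both: without it they were -1.50 and -1.62, and the first then had an adjusted p of 0.282. Without SP replicate 3 the second was -0.19. Set B minus set A was -1.25 and -1.55. Within set B, SP replicates 2 and 3 lay below non-SP replicate 2, with mean differences of -1.09 and -1.24. Within set A the differences were -0.25 and 0.43. With the set as a block the first probe set differed by -0.67 (SE 0.23, adjusted p = 0.383) and the second by -0.41. The part of RNA quality in the TET1 values was not tested. All TET1 values lay above the highest negative control, which was between 3.17 and 3.53 on the 6 arrays, although SP replicate 3 at 3.93 came near it.

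The first TET1 promoter, chr10:68560087-68560336 on the plus strand (GRCh38.p14), is shown for comparison with that of TET2, since these 2 genes gave the largest differences and in opposite directions. It holds 9 CpG, in capitals.
TET1: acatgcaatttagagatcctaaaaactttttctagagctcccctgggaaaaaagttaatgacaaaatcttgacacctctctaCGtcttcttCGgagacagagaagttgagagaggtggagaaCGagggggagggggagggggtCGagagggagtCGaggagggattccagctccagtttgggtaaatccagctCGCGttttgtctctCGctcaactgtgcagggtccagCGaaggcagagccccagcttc
Both first promoters are thus near the median of 11 CpG, unlike that of TET3 with 37.

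**Figure D2:**
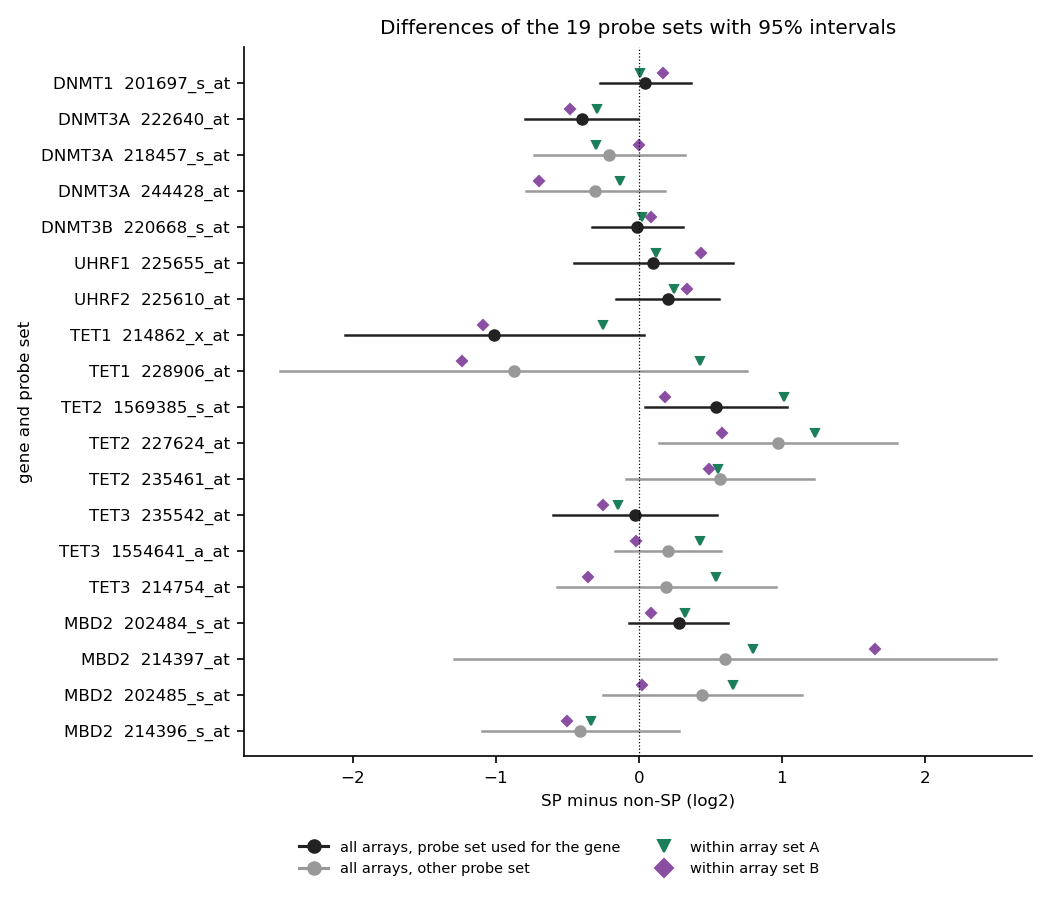
SP minus non-SP differences (log2, horizontal axis) of the 19 probe sets with 95% intervals from limma over the 6 arrays (black for the probe set that stands for the gene, grey for the others); triangles and diamonds are the differences within array sets A and B, without error bars. The 3 TET2 probe sets lie between 0.54 and 0.97 and the 2 TET1 probe sets at -1.01 and -0.88, the latter with set A and set B far apart.

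TET3 had no common direction. Its brightest probe set (235542_at) read 7.90, 8.42 and 8.30 in SP samples and 7.84, 8.61 and 8.24 in non-SP samples, a difference of -0.03 (SE 0.23; interval -0.59 to 0.53). The other 2 probe sets differed by 0.20 (1554641_a_at, SE 0.16) and by 0.19 (214754_at, SE 0.32), and the mean of the 3 by 0.12. Groups overlapped with each of them. Within the sets the brightest differed by -0.14 in set A and -0.25 in set B. Across arrays the brightest probe set followed the order of the ACTB signal: the 2 arrays with the lowest ACTB 3' minus 5' signal, non-SP replicate 1 and SP replicate 1, had the 2 lowest TET3 values, and non-SP replicate 2, with the highest signal, had the highest. With that signal as a covariate the difference was -0.10 and its SE went from 0.23 to 0.10. The correlation with that signal over the arrays was 0.97 for this probe set, 0.18 for 1554641_a_at and 0.63 for 214754_at. The part of RNA quality was not tested further.

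**Figure D3:**
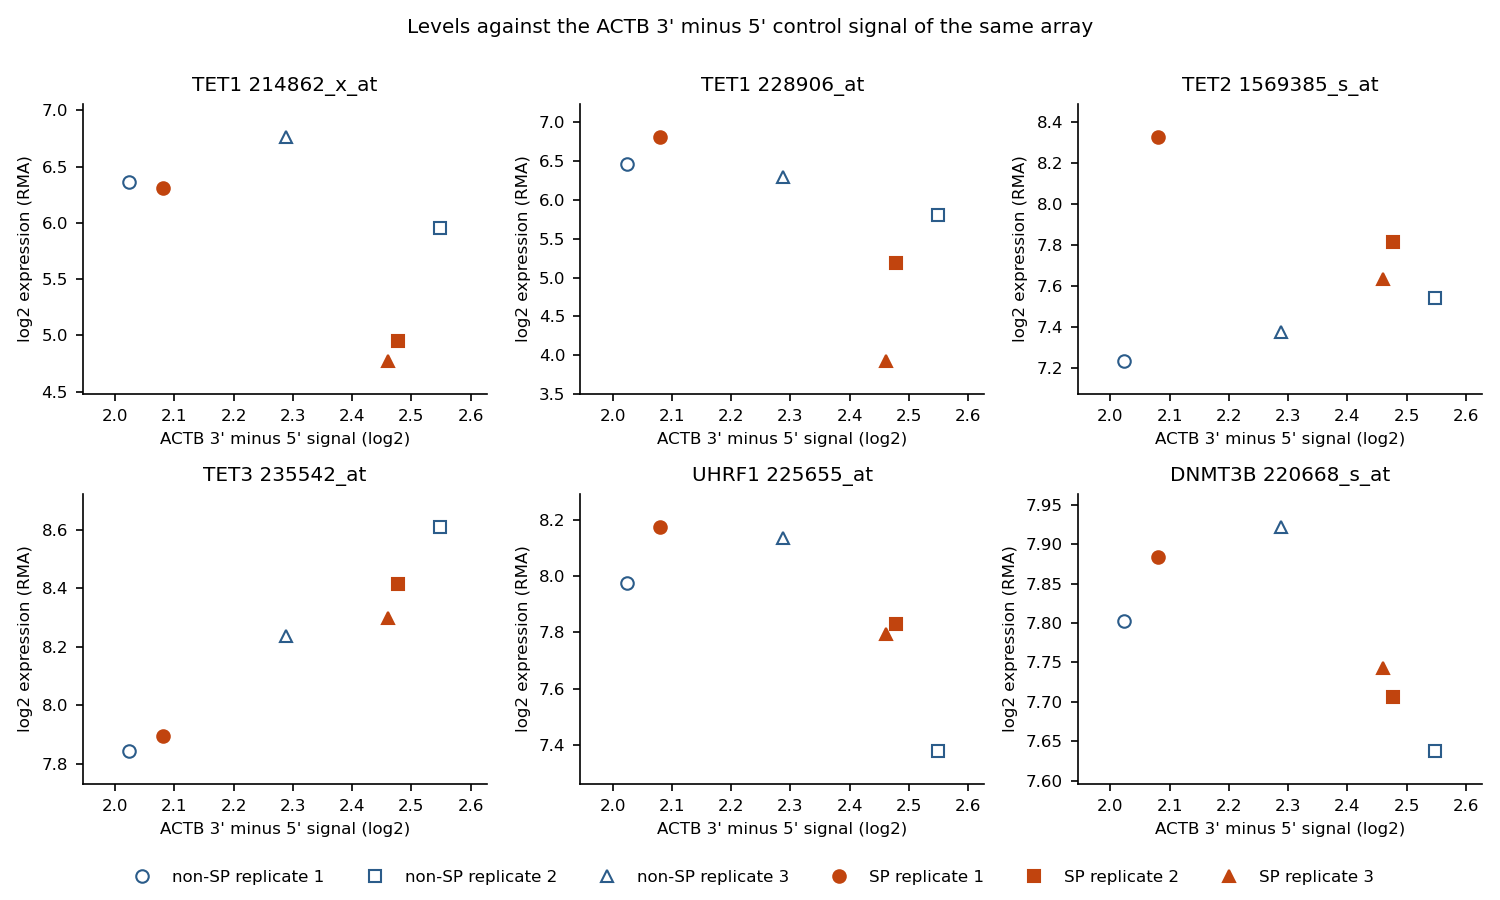
Log2 expression (vertical axes) of 6 probe sets against the ACTB 3' minus 5' control signal of the same array (log2, horizontal axes), with open blue symbols for non-SP and filled orange for SP samples. The 3 arrays of set B lie to the right, at 2.46 to 2.55. There TET3 is on average higher and UHRF1, DNMT3B and TET1 lower than on the arrays of set A. The SP values of TET2 lie above its non-SP values over all arrays, and so also on each side.

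MBD2, the reader, was brightest with 202484_s_at, at 11.44, 11.53 and 11.57 in SP samples and 11.10, 11.47 and 11.14 in non-SP samples. SP replicates 2 and 3 were the highest, and SP replicate 1 lay just below non-SP replicate 2. The difference was 0.28 (SE 0.14; interval -0.06 to 0.61), 1.21-fold with limits of 0.962 and 1.53 (limma, adjusted p = 0.794), and it was 0.32 within set A and 0.08 within set B. The other 3 probe sets differed by 0.44 (202485_s_at, SE 0.29), 0.60 (214397_at, SE 0.79) and -0.41 (214396_s_at, SE 0.29), so that 3 of 4 had a difference above 0. The probe set 214397_at went from 4.51 to 7.51 within the non-SP samples alone, which leaves its interval from -1.29 to 2.50. The mean of the 4 differed by 0.23 (SE 0.20).

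For the 3 of these genes with the smallest p, the genes whose values over the 6 samples were most alike were named by the correlation of log2 levels, a description over 6 arrays among 5977 or 5978 genes whose mean and SD were above the median. For TET2 they were MTG2, FAM111A and PER2 (r = 0.989, 0.979 and 0.977). For DNMT3A they were ITGB1BP1, PPM1N and SUCLG2 (0.996, 0.974 and 0.974), and for TET1 EPHA3, TTC7A and CLASP1 (0.994, 0.993 and 0.993). TET1 had 200 genes with r above 0.9, against 28 for TET2 and 31 for DNMT3A. These arrays share the sets described above.

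Genes that work beside the 9 were taken from 4 lists, of other writers and their recruiters, other readers, steps after TET oxidation, and supply of the methyl donor. Of 62 listed, 58 were measured, and 0 passed (limma, adjusted p over all genes). Differences were above 0 for 27 and below 0 for 31, with a median of -0.02, the same as that of all genes. Over all 19775 genes, 8948 differences were above 0 and 10827 below. At an unadjusted p under 0.05 (limma) there were 5 of the 58, of which 3 were higher and 2 lower in SP samples, against 3.07% and 3.71% of all genes.

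Among 13 other writers and recruiters 8 had a difference above 0. HELLS, the chromatin remodeller that opens DNA to DNMT3 enzymes, read 8.87, 9.02 and 8.86 in SP samples and 8.60, 8.0 and 8.56 in non-SP samples. The groups lay apart, all 5 of its probe sets were above 0, and the difference was 0.53 (SE 0.19, limma adjusted p = 0.666). It was 0.29 within set A and 0.95 within set B. CDCA7, its partner, differed by 0.33 (SE 0.24), but with 1 of its 2 probe sets above 0 and -0.12 for their mean. USP7, which stabilises UHRF1 and DNMT1, differed by 0.19 (SE 0.14).

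Of 16 readers 12 had a difference below 0, with a median of -0.12, against 10827 of all 19775 genes below 0. MTA3, a subunit of the NuRD complex that MBD2 recruits, read 8.85, 8.55 and 8.53 in SP samples and 9.12, 8.97 and 9.44 in non-SP samples. SP values were all lower, and the difference was -0.54 (SE 0.17, limma adjusted p = 0.612), with -0.43 within each set. Another NuRD subunit, GATAD2B, differed by -0.25 (SE 0.14), but with 1 of its 2 probe sets above 0 and 0.0051 for their mean. ZBTB33, which binds methylated CpG through zinc fingers, differed by -0.27 (SE 0.16). MBD1, a relative of MBD2, differed by 0.24 (SE 0.14), but with 2 of its 5 probe sets above 0 and -0.17 for their mean.

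Of 12 genes in steps after TET, 6 had a difference above 0 and 6 below. CXXC5, a CpG-binding protein known to interact with TET2, read 6.97, 6.97 and 6.47 in SP samples and 5.46, 6.22 and 5.75 in non-SP samples. Every SP value was above every non-SP value, all 3 of its probe sets were above 0, and the difference was 0.99 (SE 0.24; interval 0.42 to 1.56), with an adjusted p of 0.482 (limma). It was 1.36 within set A and 0.50 within set B. IDH2, whose product 2-oxoglutarate is needed by TET enzymes, was at 6.31, 6.0 and 5.79 against 7.04, 6.47 and 6.56. All SP values were lower, and the difference was -0.66 (SE 0.21, adjusted p = 0.612), or -0.48 and -0.58 within sets A and B. The DNA glycosylase NEIL3 differed by 0.76 (SE 0.29, adjusted p = 0.706) with overlapping groups, by 1.11 within set A and 0.20 within set B. SMUG1, another glycosylase, differed by -0.64 (SE 0.31) with all SP values lower, by -1.22 within set A and -0.0725 within set B. TDG, which excises the oxidised bases that TET enzymes make, had an interval of -0.37 to 0.36 around no difference (SE 0.15).

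Of 17 genes that supply or use the methyl donor, by their brightest probe sets, 9 were above 0 and 0 had an unadjusted p under 0.05 (limma). The choice of probe set mattered for MTHFD1, which differed by -0.09 (SE 0.13) this way. The mean of its 2 probe sets differed by 0.88 (SE 0.23). NNMT, which uses up the donor by methylating nicotinamide, differed by -1.21 (SE 0.57): SP replicates 1 and 2 read 6.70 and 6.71, but SP replicate 3, at 8.64, lay among the non-SP values of 8.10 to 9.17. Its difference was -1.55 within set A and -1.50 within set B. The mean of its 3 probe sets differed by -0.57 (SE 0.27). GNMT differed by -0.33 (SE 0.18), MAT2A, which makes the donor, by 0.28 (SE 0.21), and BHMT was below the negative controls on all 6 arrays.

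Genes of the germline that promoter methylation is known to keep silent elsewhere in the body were followed as a readout, 21 of them measured. Of these, 13 were above 0, against 8948 of all 19775 genes. The median of the 21 was 0.03, and 0 of them passed (limma). At an unadjusted p under 0.05 there was 1, DDX4, or 4.76% against 6.78% of all genes. For 7 of the 21, the level was below the highest negative control on all 6 arrays. DDX4, an RNA helicase of germ cells, read 3.20, 3.05 and 3.09 in SP samples and 2.68, 2.78 and 2.61 in non-SP samples, a difference of 0.43 (SE 0.11; 0.56 and 0.29 within sets A and B), but it exceeded the highest negative control on 1 of 6 arrays. MAEL differed by 0.22 (SE 0.11) with 0 of 6 arrays above that control, FKBP6 by -0.21 (SE 0.11) and SYCP2 by -0.59 (SE 0.35).

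**Figure D4:**
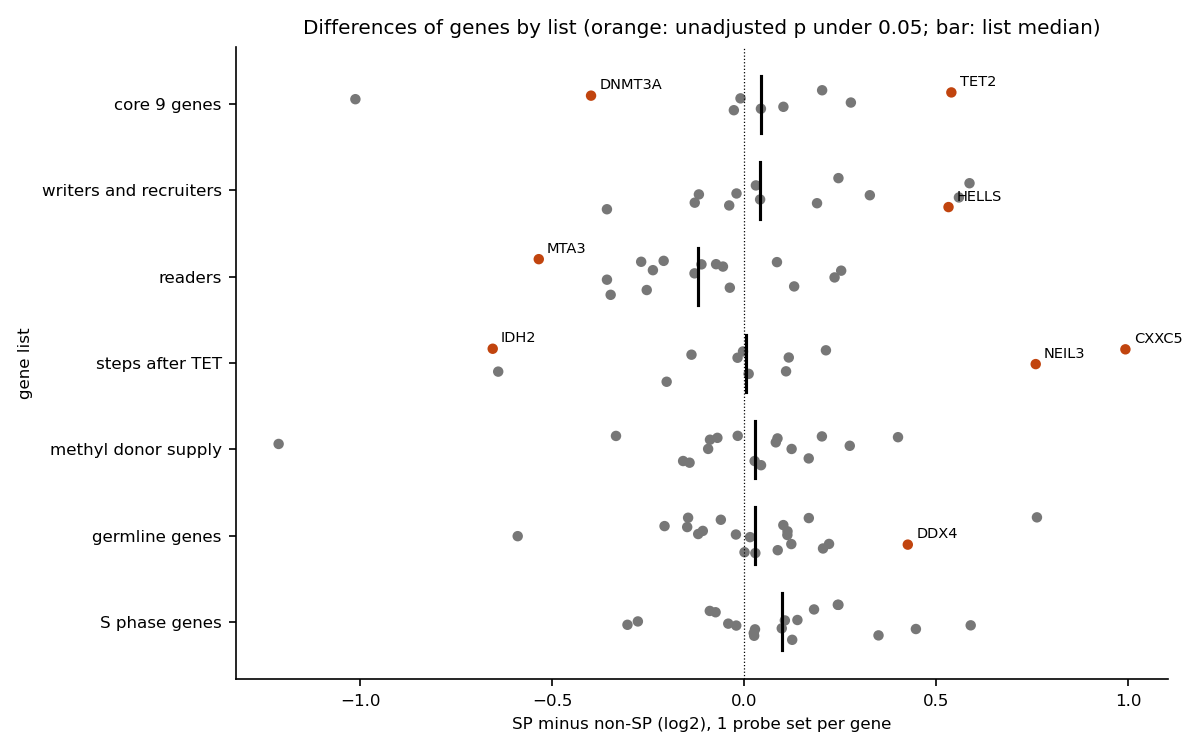
SP minus non-SP differences (log2, 1 probe set per gene) of the 9 genes and of genes in 6 related lists; each point is a gene, orange points had an unadjusted p under 0.05 and are named, and black bars are list medians. List medians lie between -0.12 for readers and 0.10 for S phase genes, and 0 genes of any list passed the adjusted threshold.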

How the data were processed

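Per the labels' protocols, RNA of sorted cells was isolated with PicoPure, amplified with WT-Ovation Pico and labelled with biotin. The authors deposited log2 values, 1 for each probe set. The tools named are RMA and affy in R 2.8.1, per the submitters' processing notes. RMA sets all arrays to a shared distribution (medians 5.59 to 5.64), so a change in total RNA cannot be seen, and small differences near background are compressed.

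Controls (62 of 54675 probe sets) were left out. A gene was represented by its brightest probe set on average over the 6 samples. Gene names come from the platform annotation, matched through Entrez ID to RefSeq (GRCh38.p14) for 41037 of 41091 probe sets with 1 symbol; promoter sequences are RefSeq's. The 3 AFFX-TrpnX probe sets served as negative controls. Differences, SP minus non-SP, were fitted with limma 3.58.1 (R 4.3.3; lmFit and eBayes, two-sided, no covariate) over all genes, or all probe sets, with Benjamini-Hochberg adjustment, a threshold of 0.05 and 95% intervals; values given for a gene come from the gene fit and for its further probe sets from the probe set fit. The fit was tested on simulated data. Named were the 9 genes, up to 4 genes of each related list by unadjusted p, and the 3 most alike genes; any others, such as TDG, were picked with their values known. The genes and lists were chosen with earlier results of these data known. Alternatives tried: averaging a gene's probe sets, a replicate block, only features above the median level, cyclic loess, median centring, an intensity trend, array weights, the array set, the ACTB signal and leaving out each sample.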

Additional observations from a re-analysis of the deposited data

How the results depend on the processing

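In each of the 15 alternatives for genes and 14 for probe sets, 0 of the 9 genes, 0 of their 19 probe sets and 0 of the 58 related genes passed. The direction held in all alternatives run for 5 of the 9 genes (DNMT3A, UHRF2, TET1, TET2 and MBD2) and 12 of the 19 probe sets. Some alternatives could not turn it: the replicate block, the intensity trend and the limit to features above the median left each difference unchanged. For DNMT3A and TET2, whose groups lay apart with the brightest probe set, leaving out 1 sample could not turn it either. With array weights the differences of DNMT1 and UHRF1 turned to -0.0248 and -0.081 in the gene fit (-0.0183 and -0.0583 in the probe set fit), that of TET3 to 0.10 (0.0815) and that of the MBD2 probe set 214397_at to -0.088. DNMT3B turned to 0.0088 with the ACTB signal as a covariate and to 0.054 with the array set as a block, and TET3 to 0.12 with the mean of its probe sets. With 1 sample left out, DNMT1 ranged from -0.0283 to 0.13, DNMT3B from -0.0842 to 0.0574, UHRF1 from -0.12 to 0.25, TET3 (235542_at) from -0.22 to 0.16, its probe set 214754_at from -0.16 to 0.44, DNMT3A 218457_s_at from -0.34 to 0.032 and MBD2 214397_at from -0.16 to 1.34. Over all genes, the count of 1 became 3 with the ACTB signal, 5 with the array set, 12 with array weights, 0 with the mean of the probe sets, 0 with features above the median and 1 to 2 without 1 sample. Over all probe sets, 1 became 4 with the ACTB signal, 5 with the array set, 0 above the median and 0 to 2 without 1 sample. With the replicate number as a block, the counts were 3 genes and 0 probe sets. Deviations of same-numbered samples from their group means correlated at 0.449, 0.381 and -0.212. With 3 samples per group this does not settle whether the numbers pair the samples. The cause of these changes was not tested. Because sets A and B were read from the values tested, p-values that use the set can be too low. In the gene fit TET1 lies below the median level and so has no value with the features above it. In the probe set fit the same holds for DNMT3A 244428_at, TET3 214754_at and MBD2 214396_s_at.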
